A study of Mus musculus with 12 samples.

Results

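The transcripts of 6 genes that mark B cells and plasma cells (Ms4a1, Cd79a, Cd79b, Jchain, Ighm and Igkc) were followed through the livers of 12 C57BL/6J mice. The genes were chosen by name, with earlier results of these data known, out of 24983 genes in the table. All 6 had enough counts to be tested. Each of 4 groups held 3 mice, with 1 library per mouse. Mice of 3 groups ate for 24 weeks a diet that brings on an inflamed fatty liver (nonalcoholic steatohepatitis, NASH); fat supplied 40% of its calories, and it held trans fat, fructose and cholesterol. They also carried a minipump under the skin. The pump released OA-NO2 (nitro-oleic acid) at 5 mg/kg/day in polyethylene glycol (PEG), OA (oleic acid, the same fatty acid without the nitro group) at 5 mg/kg/day in PEG, or PEG alone (vehicle). The last group ate standard chow, and the labels tie no pump to those mice, so the diet and the pump cannot be told apart in comparisons with chow. For the sex and age of the mice and the length of infusion, the sources used here give no value.

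B cells carry an antibody on their surface as a receptor, and the proteins of Cd79a and Cd79b pair up beside it to pass the signal into the cell. Ms4a1 encodes CD20, a surface protein of mature B cells that plasma cells no longer make. Plasma cells arise from B cells and turn most of their effort to secreted antibody: Igkc encodes the constant part of the kappa light chain, Ighm the constant part of the IgM heavy chain, and Jchain the small protein that joins IgM and IgA into multimers. A liver holds B cells that arrive with the blood, and in NASH lymphocytes can gather in the tissue.

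Total counts ran from 8462590 in chow replicate 1 to 20613777, with 15972613 the next lowest. Levels are given as CPM, a gene's counts per 1000000 counts of the library after scaling by the trimmed mean of M values (TMM). Hepatocyte markers, read as a check of the tissue label, summed to between 59400 and 184000 CPM in the 12 libraries, and the B cell and plasma cell genes were a trace beside them. In RNA from whole tissue, fewer cells of a type and less RNA per cell cannot be told apart. Tnfrsf17, the survival receptor of plasma cells, had at most 3 counts in any library and was not tested.

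Ms4a1 lies at chr19:11249675-11266241 (- strand), Cd79a at chr7:24897381-24902197 (+), Cd79b at chr11:106311341-106314762 (-) and Jchain at chr5:88519809-88527891 (-), all protein-coding, and the constant-region genes Ighm and Igkc at chr12:113418558-113422730 (-) and chr6:70726435-70726966 (+), in GRCm38. Promoter sequence was at hand for 2 of the 6, Cd79a for the receptor side and Jchain for the antibody side, and is shown because these 2 kinds of gene varied apart from each other across the livers. Both are from RefSeq, build GRCm38.p6, written 5′ to 3′ on the strand of the gene, ending directly before the annotated gene start for Cd79a and a few bases further upstream for Jchain, at chr7:24897247-24897380 (+) and chr5:88527898-88528147 (-). Capitals mark a match to a motif.
Cd79a: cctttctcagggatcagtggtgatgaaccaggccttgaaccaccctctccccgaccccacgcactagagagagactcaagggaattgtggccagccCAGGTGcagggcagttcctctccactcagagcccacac
Jchain: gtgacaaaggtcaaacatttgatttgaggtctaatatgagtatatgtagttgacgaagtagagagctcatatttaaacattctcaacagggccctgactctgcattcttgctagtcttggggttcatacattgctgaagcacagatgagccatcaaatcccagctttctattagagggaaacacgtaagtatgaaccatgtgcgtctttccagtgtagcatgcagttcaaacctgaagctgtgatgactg

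Motifs known in B cells were searched on both strands in the 250 bases before the RefSeq start, a choice made after the values were seen. The octamer ATGCAAAT, held by 1.6% of 32851 promoters, and the EBF1 core CCCNNGGG, held by 11.8%, had 0 matches in either window. The E-box CAGGTG, held by 17.2% of promoters, matched once in Cd79a, 154 bases before the RefSeq start, which is the stretch in capitals. The ETS core GGAAGT, held by 19.7%, also matched once in Cd79a, 54 bases before that start and beyond the bases shown. In the Jchain window 0 matches to the 4 motifs were found. The motifs did not overlap one another, and a match describes letters only.

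Among the receptor genes, Ms4a1 had 0.412, 0.466 and 0.725 CPM in OA-NO2 livers, 1.02, 0.769 and 1.32 CPM in OA livers, 3.08, 2.03 and 1.27 CPM in vehicle livers and 0.156, 0.895 and 1.6 CPM in chow livers (replicates 1 to 3). The OA-NO2 livers lay below all OA and all vehicle livers, while chow livers spread from below every other library to above every OA-NO2 and OA liver. These are low counts: 8 to 12 reads per OA-NO2 liver, 15 to 22 per OA liver, 30 to 66 per vehicle liver and 1 to 25 per chow liver. The levels of Cd79a were 0.721, 1.86 and 0.423 CPM in OA-NO2 livers, 1.12, 0.769 and 1.63 CPM in OA livers, 3.4, 1.81 and 1.69 CPM in vehicle livers and 0.468, 1.03 and 1.79 CPM in chow livers. Vehicle livers lay above OA livers for this gene, but OA-NO2 replicate 2 stood among the vehicle livers. For Cd79b the values were 0.875, 1.71 and 1.45 CPM in OA-NO2 livers, 2.34, 2.26 and 2.47 CPM in OA livers, 5.4, 2.61 and 2.11 CPM in vehicle livers and 0.936, 1.86 and 2.69 CPM in chow livers. OA-NO2 livers were below every OA and every vehicle liver, and the 3 OA livers differed by a factor of only 1.09 from lowest to highest.

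The antibody genes were far more uneven from mouse to mouse. Jchain had 1.29, 6.11 and 3.38 CPM in OA-NO2 livers, 9.48, 2.15 and 1.69 CPM in OA livers, 21.6, 13.6 and 5.87 CPM in vehicle livers and 8.27, 4.4 and 7.3 CPM in chow livers. Vehicle replicates 1 and 2 were the highest libraries, and vehicle replicate 3 fell inside the range of the other groups. Ighm had 8.13, 20.5 and 11.4 CPM in OA-NO2 livers, 17.5, 8.77 and 7.95 CPM in OA livers, 149, 18.9 and 14.7 CPM in vehicle livers and 36.3, 5.5 and 22 CPM in chow livers. A single mouse, vehicle replicate 1, held 4.09 times the Ighm of the next library, chow replicate 1, while the other vehicle livers overlapped every group. Igkc had 4.79, 24.3 and 10.9 CPM in OA-NO2 livers, 25.7, 6.66 and 7.65 CPM in OA livers, 130, 38.2 and 16.8 CPM in vehicle livers and 28.4, 8.46 and 34.1 CPM in chow livers. Vehicle replicate 1 was 3.41 times the second library, vehicle replicate 2, and the groups overlapped without it.

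**Figure D1:**
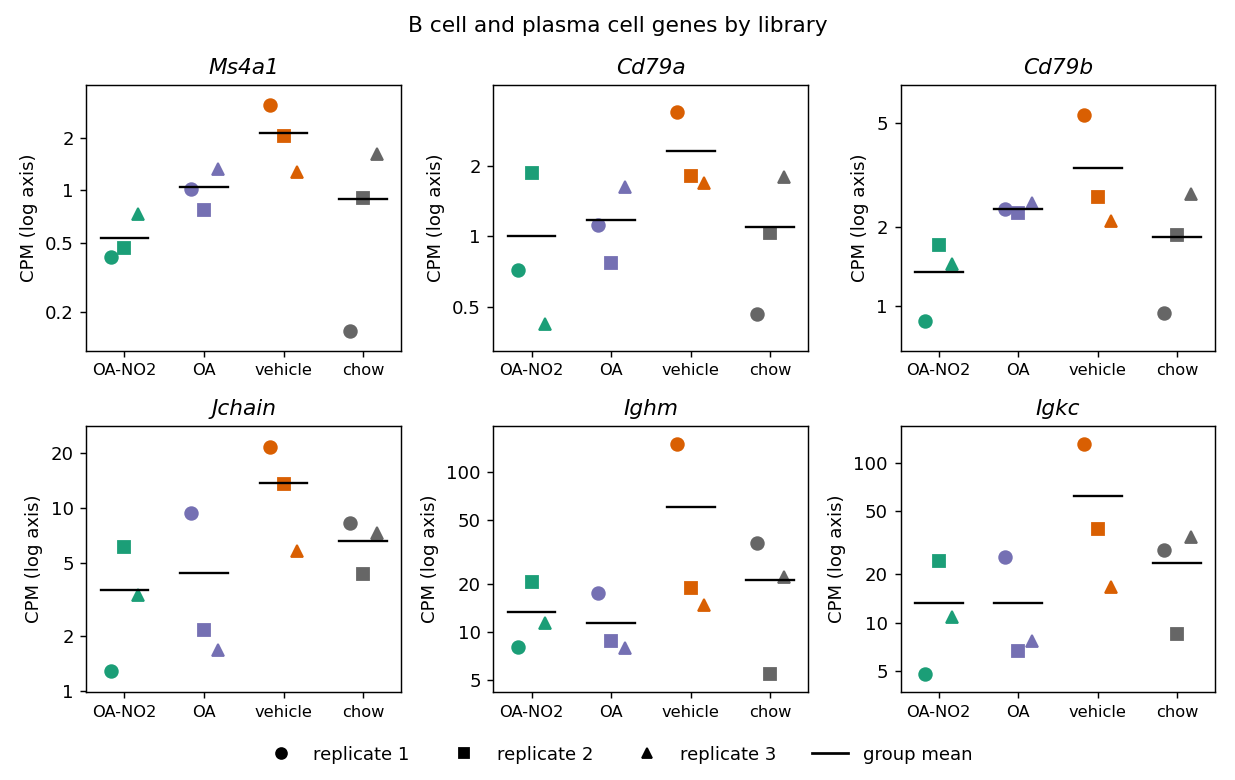
Level of each of the 6 genes in each library, in CPM on a log axis, with 1 point per mouse (shape gives the replicate) and a bar at the group mean (n = 3 each). Vehicle replicate 1 is the highest point in all 6 panels, and OA-NO2 livers lie below OA and vehicle livers for Ms4a1 and Cd79b.

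The vehicle group had the highest mean for 6 of 6 genes, and vehicle replicate 1 was the highest single library for 6 of 6. The lowest mean was that of OA-NO2 livers for Ms4a1, Cd79a, Cd79b and Jchain, and that of OA livers for Ighm and Igkc. Mean Ms4a1 was 0.534 ± 0.167 CPM with OA-NO2, 1.04 ± 0.278 CPM with OA, 2.12 ± 0.908 CPM with vehicle and 0.884 ± 0.722 CPM with chow (SD, n = 3 each). Mean Igkc was 13.3 ± 10 CPM with OA-NO2, 13.3 ± 10.7 CPM with OA, 61.7 ± 60.2 CPM with vehicle and 23.7 ± 13.5 CPM with chow (SD, n = 3 each). Neighbours in the order of group means differed by less than the larger of their SDs for all 6 genes, except vehicle and OA for Ms4a1 and Cd79a. Per kilobase of exon, so that genes can be set side by side, the mean levels in vehicle livers were 116 CPM per kb for Igkc, 32.2 for Ighm, 5.45 for Jchain, 2.36 for Cd79b, 1.58 for Cd79a and 0.343 for Ms4a1. The 6 genes kept that order of levels per kb in OA-NO2 and OA livers as well, at 25.1 and 25.1 CPM per kb for Igkc and 0.0864 and 0.168 CPM per kb for Ms4a1.

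The NASH diet with vehicle was first set against chow, a comparison in which the diet and the pump cannot be told apart. All 6 had positive log2 fold changes, as did 49.2% of all genes, from 0.81 to 1.55 (median 1.09, against -0.01 over all genes), but 0 of 6 passed the test. In the edgeR quasi-likelihood test 0 of 6 reached an adjusted p under 0.05, against 19.3% of the 14469 genes tested; 1 of 6 (Ms4a1) had an unadjusted p under 0.05, against 33.7% of all genes, and DESeq2 called 0 of 6 (22.4% of all genes). Ms4a1 differed by 1.11 ± 0.51 (log2, SE, adjusted p = 0.143, edgeR), Cd79b by 0.81 ± 0.41 (adjusted p = 0.179), Cd79a by 0.97 ± 0.54 (adjusted p = 0.226), Ighm by 1.55 ± 0.80 (adjusted p = 0.189), Igkc by 1.39 ± 0.76 (adjusted p = 0.217) and Jchain by 1.06 ± 0.64 (adjusted p = 0.26). The vehicle and chow ranges overlapped for all 6, where 39.4% of all genes did not overlap. Without vehicle replicate 1 the median difference was 0.43, and Ighm turned to -0.31. Scaling by library size alone moved the median of all genes by 0.51 in this comparison, and under it Ms4a1, Cd79a and Cd79b passed, with adjusted p-values of 0.0248, 0.0452 and 0.0234. With that scaling 5758 of the 14469 genes passed as well.

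OA-NO2 was then set against vehicle within the NASH diet. All 6 genes had negative log2 fold changes, as did 48.0% of all genes, from -2.21 to -1.18 (median -1.96, against 0.02 over all genes). The edgeR test called 0 of 6 at an adjusted p under 0.05, against 0.0207% of all genes (3 genes, all higher). All 6 had an unadjusted p under 0.05, while 15.8% of all genes did and 8.51% did so with lower levels. Ms4a1 was at -1.99 ± 0.52 (95% interval -3.11 to -0.86, adjusted p = 0.158), and DESeq2 called it, alone among the 6, with an adjusted p of 0.0272 (2.07% of all genes were called by DESeq2). Cd79b was at -1.33 ± 0.41 (95% interval -2.2 to -0.45, adjusted p = 0.177), Cd79a at -1.18 ± 0.53 (adjusted p = 0.299), Jchain at -1.93 ± 0.65 (adjusted p = 0.195), Ighm at -2.19 ± 0.80 (adjusted p = 0.225) and Igkc at -2.21 ± 0.78 (adjusted p = 0.211). The groups did not overlap for 2 of 6 genes, Ms4a1 and Cd79b, where 10.5% of all genes lay lower with OA-NO2 without overlap. Without vehicle replicate 1 the 6 differences ran from -1.62 (Ms4a1) to -0.33 (Ighm), with a median of -0.92 and adjusted p-values of 0.175 to 0.806, and 1 of 6 kept an unadjusted p under 0.05. The share of all genes that did so in that fit was not counted.

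OA against vehicle, the control for the fatty acid without its nitro group, gave differences of the same sign. Log2 fold changes were -2.41 ± 0.81 for Ighm, -2.21 ± 0.78 for Igkc, -1.61 ± 0.64 for Jchain, -1.03 ± 0.49 for Ms4a1, -0.98 ± 0.52 for Cd79a and -0.52 ± 0.39 for Cd79b, with a median of -1.32, and 49.5% of all genes had a negative value. The edgeR test called 0 of 6, as it called 0.0% of all genes, and each of the 6 had an adjusted p of 0.975; DESeq2 called 0 of 6 (0.0% of all genes). An unadjusted p under 0.05 was seen for the 3 antibody genes, against 3.9% of all genes (1.53% lower). Cd79a alone did not overlap between OA and vehicle livers, where 5.31% of all genes lay lower without overlap. Without vehicle replicate 1 the differences ran from -1.12 (Jchain) to 0.00 (Cd79b), with a median of -0.62, and 0 of 6 had an unadjusted p under 0.05. Here too the share of all genes in that fit was not counted. The OA-NO2 and OA comparisons share the 3 vehicle livers, so the likeness of their values is no separate evidence.

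OA-NO2 and OA differ by the nitro group, were infused at the same dose, and can be compared without the vehicle livers. The antibody genes had nearly the same means in both groups: Igkc differed by -0.00 ± 0.77 (95% interval -1.65 to 1.65), Ighm by 0.22 ± 0.80 (-1.49 to 1.94) and Jchain by -0.31 ± 0.66 (-1.73 to 1.11). Of the receptor genes, Ms4a1 was at -0.95 ± 0.54 (95% interval -2.12 to 0.22, adjusted p = 0.485, edgeR), Cd79b at -0.81 ± 0.41 (-1.7 to 0.08, adjusted p = 0.452) and Cd79a at -0.20 ± 0.55 (-1.38 to 0.98, adjusted p = 0.904). The edgeR test called 0 of 6 (0.00691% of all genes), 0 of 6 had an unadjusted p under 0.05 (12.0% of all genes), and DESeq2 called 0 (0.352% of all genes). Ms4a1 and Cd79b were lower in every OA-NO2 liver than in every OA liver, which held for 7.37% of all genes. The intervals are wide, so these data do not show that the 2 fatty acids act alike on the antibody genes.

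**Figure D2:**
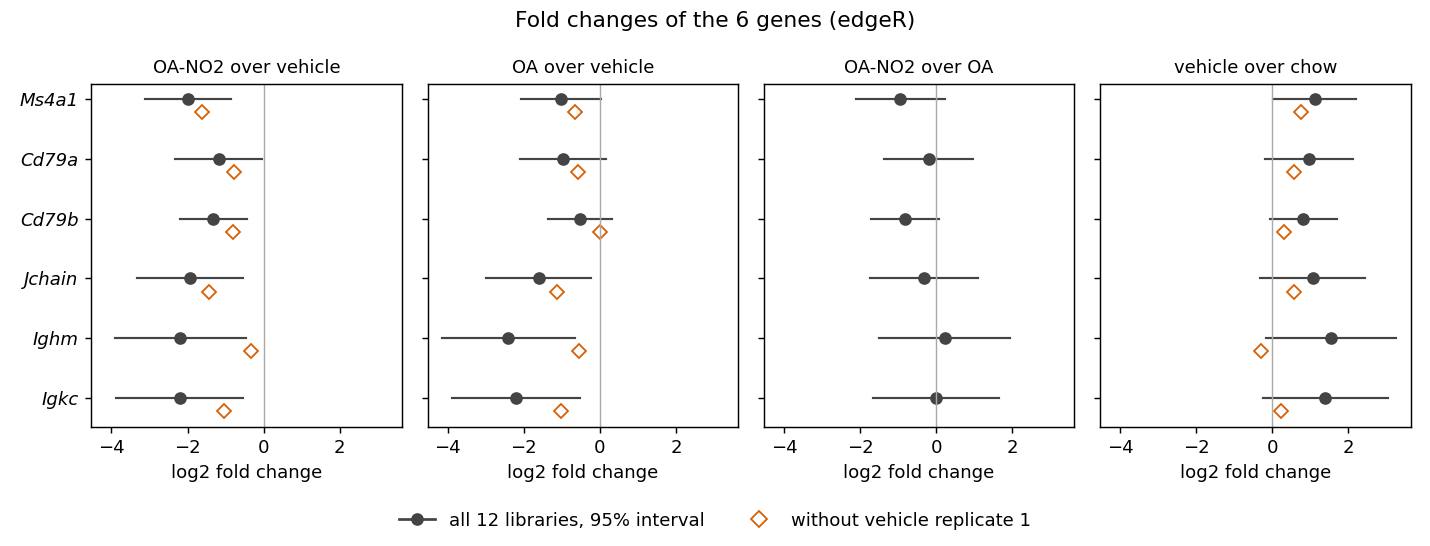
Log2 fold changes of the 6 genes in 4 comparisons (edgeR, filled points with 95% intervals), with the value after vehicle replicate 1 was left out as open diamonds in the 3 comparisons that use it. The filled points are below 0 for all 6 genes in both drug comparisons with vehicle and above 0 in vehicle over chow, and the diamonds lie closer to 0, with Ighm at -0.31 in vehicle over chow.

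Against chow, the fatty acid groups showed no called difference in these genes. For OA-NO2 over chow the log2 fold changes ran from -0.88 ± 0.56 for Ms4a1 to -0.21 ± 0.57 for Cd79a (median -0.73), and edgeR called 0 of 6 while it called 0.684% of all genes. For OA over chow they ran from -0.86 ± 0.81 for Ighm to 0.29 ± 0.42 for Cd79b (median -0.28), with 0 of 6 called and 8.56% of all genes called. In both comparisons 0 of 6 had an unadjusted p under 0.05, against 18.8% of all genes for OA-NO2 and 25.7% for OA, and DESeq2 called 0 of 6 in each (4.51% of all genes for OA-NO2 and 13.0% for OA). These 2 comparisons and that of vehicle use the same chow livers. Chow replicate 1, the shallowest library, held 1, 3 and 6 reads of Ms4a1, Cd79a and Cd79b.

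Across the 12 libraries the 6 genes fell into a receptor side and an antibody side. Pearson correlations of log2 CPM were 0.91 between Ms4a1 and Cd79b, 0.81 between Cd79a and Cd79b and 0.77 between Ms4a1 and Cd79a (n = 12 libraries). On the antibody side they were 0.95 between Jchain and Igkc, 0.92 between Ighm and Igkc and 0.8 between Jchain and Ighm. Between the sides they were lower, from 0.3 for Ms4a1 with Ighm to 0.61 for Cd79a with Igkc and for Cd79b with Igkc. After the group means were removed, the values within the sides stayed at 0.61 to 0.92, and those between the sides were 0.01 for Ms4a1 with Ighm, 0.12 for Ms4a1 with Jchain and at most 0.56 (Cd79b with Igkc). These are descriptions: the points share library preparation and depth, and the receptor genes rest on few reads.

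The split shows in single mice. Chow replicate 1 had 468 reads of Ighm, Igkc and Jchain together but 10 of Ms4a1, Cd79a and Cd79b, a ratio of 46.8, and OA replicate 3 had 287 and 90, a ratio of 3.19. The ratios were 7.08, 12.6 and 9.86 in OA-NO2 livers, 11.7, 4.64 and 3.19 in OA livers, 25.3, 11 and 7.37 in vehicle livers and 46.8, 4.85 and 10.4 in chow livers. The 4 groups overlapped in this ratio.

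**Figure D3:**
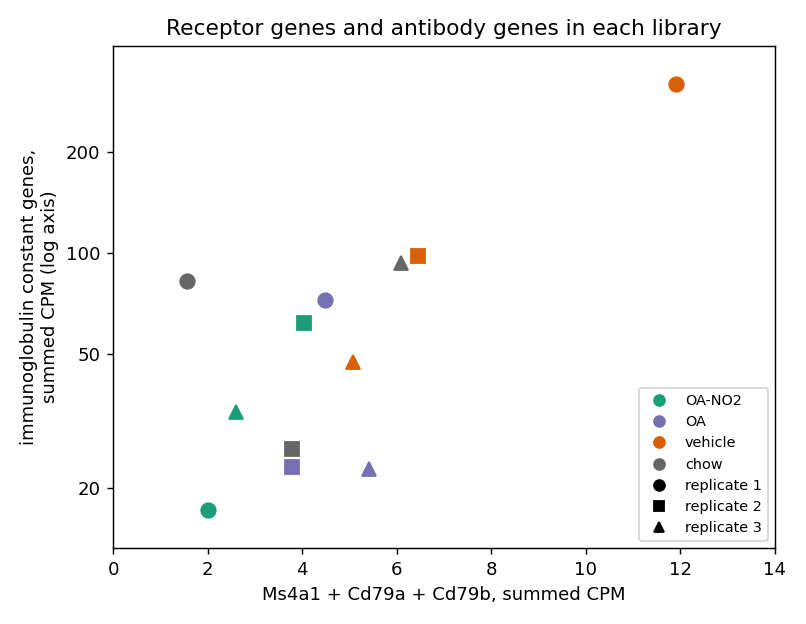
Summed CPM of the immunoglobulin constant genes (log axis) against summed CPM of Ms4a1, Cd79a and Cd79b in each library, coloured by group and shaped by replicate. Vehicle replicate 1 is highest on both axes (11.9 and 318 CPM), chow replicate 1 has the lowest receptor sum (1.56 CPM) with 82.7 CPM of immunoglobulin, and OA replicate 3 has 5.42 CPM of receptor genes with 22.8 CPM of immunoglobulin.

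Other tested genes were ranked by how closely their log2 CPM followed each of the 6 over the 12 libraries. The r values given are the highest out of 14469 tested genes over 12 libraries, so they lean high. Iglc2, a lambda light chain constant gene, was nearest to all 3 receptor genes, with r of 0.89 for Ms4a1, 0.9 for Cd79a and 0.88 for Cd79b. After the group means were removed these were 0.87, 0.84 and 0.93. Iglc2 had 49 reads in vehicle replicate 1 and 15 in the next highest library, so that mouse weighs on these values. For Cd79a the next were the B cell transcription factor genes Pax5 (0.88) and Ebf1 (0.84), and for Cd79b they were Ptprcap (0.87), a partner of CD45 in lymphocytes, and Fcmr (0.87), a receptor for IgM. For Ms4a1 they were Zbtb8a (0.88) and the sulfotransferase gene Chst2 (0.87). Jchain was nearest to the antibody genes Ighg2c (0.95), Iglc1 (0.9) and Igha (0.89). Mzb1, a chaperone of antibody assembly in the endoplasmic reticulum, was nearest to both Ighm (0.95) and Igkc (0.91), followed for Ighm by the pseudogene Rpl9-ps4 (0.89) and by Pou2af1 (0.85), a co-activator in B cells, and for Igkc by Ighg2c (0.89) and Ighg1 (0.86).

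The heavy chain constant genes give the mix of antibody classes. IgM made up 68.4%, 56.0% and 51.8% of heavy chain constant counts in OA-NO2 livers, 38.9%, 56.1% and 56.2% in OA livers, 81.7%, 33.6% and 49.9% in vehicle livers and 67.7%, 33.5% and 38.7% in chow livers. The share in vehicle replicate 1 had a 95% Wilson interval of 80.4 to 82.8%, above the intervals of the other vehicle livers (30.8 to 36.5% and 46.2 to 53.6%). Such intervals cover counting error only, and their widest was 49.8 to 62.4%, in OA replicate 3. IgA, the antibody of mucosal surfaces, made up 5.76% of the counts in that mouse (95% interval 5.07 to 6.54%) and 18.2% (13.7 to 23.7%) to 40.6% (34.6 to 46.9%) in the other 11 livers. In CPM, Igha had 2.16, 8.39 and 4.71 in OA-NO2 livers, 14.3, 2.87 and 2.59 in OA livers, 10.5, 14.3 and 8.2 in vehicle livers and 12.5, 6.67 and 19.0 in chow livers. The highest Igha was thus in chow replicate 3, and vehicle replicate 1 did not stand out.

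**Figure D4:**
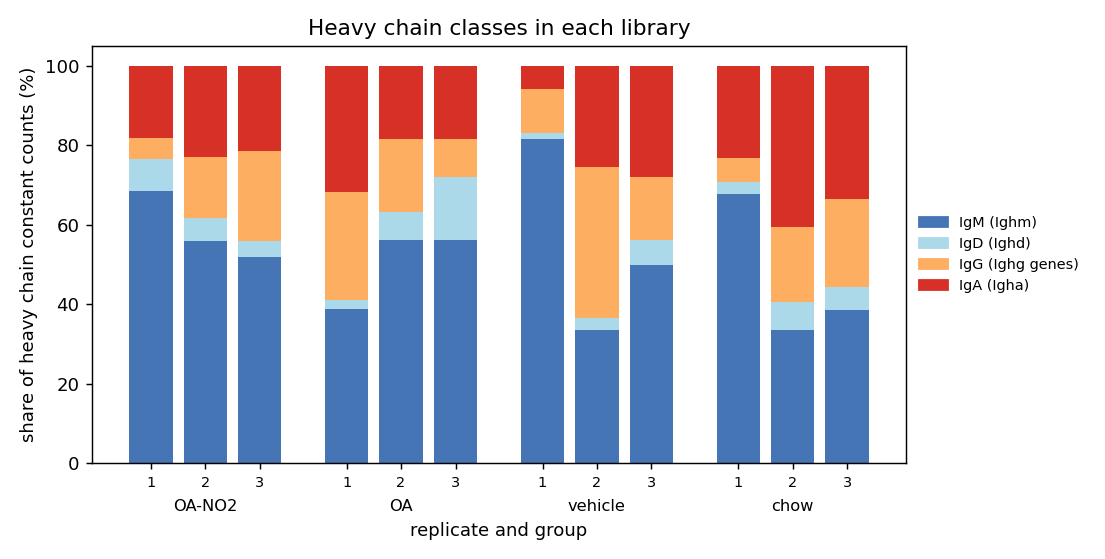
Share of heavy chain constant counts taken by IgM, IgD, the IgG genes together and IgA in each library (stacked bars to 100%, grouped by treatment). IgM takes 81.7% in vehicle replicate 1, and no group has a mix that all 3 of its mice share apart from the others.

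Of the immunoglobulin constant genes, 10 were tested, Ighm and Igkc among them. With the untested Ighg3 the constant genes summed to 17.2, 62 and 33.6 CPM in OA-NO2 livers, 72.7, 23.1 and 22.8 CPM in OA livers, 318, 97.7 and 47.5 CPM in vehicle livers and 82.7, 26.1 and 93.5 CPM in chow livers. Vehicle replicates 1 and 2 were the highest, and vehicle replicate 3 lay within the other groups. The edgeR test called 0 of 10 in each of the 6 comparisons, against 0.0% to 19.3% of all genes. In vehicle over chow 2 of 10 had an unadjusted p under 0.05, against 33.7% of all genes. These were the IgG genes Ighg1 (2.64 ± 1.0, adjusted p = 0.0806) and Ighg2c (1.93 ± 0.83, adjusted p = 0.118). DESeq2 called 1 of 10 there, against 22.4% of all genes. In OA-NO2 over vehicle 7 of 10 had an unadjusted p under 0.05 (15.8% of all genes, 8.51% with lower levels). The lowest p was that of Iglc1 (-2.22, adjusted p = 0.18) and Ighg2c (-2.59 ± 0.84, adjusted p = 0.18), and the median of the 10 was -2.05. Without vehicle replicate 1, Ighm and Igkc were at -0.33 and -1.04 in that comparison, against -2.19 and -2.21 with it. In OA over vehicle it was 6 of 10 (3.9% of all genes) and a median of -1.75. In the other 3 comparisons it was 0 of 10 (25.7% of all genes for OA over chow, 18.8% for OA-NO2 over chow and 12.0% for OA-NO2 over OA). DESeq2 called 0 in these 5 comparisons. Ighg2b and Ighg2c, and Iglc2 and Iglc3, are near copies, and how reads that map to several places were counted is not given, so the split of counts within such pairs is uncertain.

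Variable segments tell which antibodies are made. The table held 63 heavy, 74 kappa and 3 lambda variable genes, of which 2 were tested (Igkv5-39 and Iglv1) and 0 called in any comparison. Kappa segments summed to 33, 82 and 41 reads in OA-NO2 livers, 133, 44 and 28 in OA livers, 384, 132 and 116 in vehicle livers and 56, 41 and 178 in chow livers. Vehicle replicate 1 thus led here as well, followed by chow replicate 3. A segment singled out after its values were seen was Igkv3-2 (chr6:70698449-70699067), with 0, 0 and 1 reads in OA-NO2 livers, 5, 2 and 2 in OA livers, 90, 0 and 3 in vehicle livers and 24, 1 and 1 in chow livers. It made up 23.4% of kappa segment reads in vehicle replicate 1 (95% Wilson interval 19.5 to 27.9%) and 42.9% in chow replicate 1 (30.8 to 55.9%), the 2 livers with the highest Ighm CPM. Igkv17-127 and Igkv4-55 had 52 and 43 reads in vehicle replicate 1 and at most 4 and 6 in any other liver. Heavy chain segments were too thinly counted to show such a lead, with 64 reads over 26 segments in vehicle replicate 1 and 8 for the highest. Near-identical segments may share reads.

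The wider B cell genes did include called differences between vehicle and chow livers. Of 12 tested genes for B cell receptors and surface proteins, 5 rose in vehicle livers over chow and 0 fell (11.1% and 8.16% of all genes), with a median of 0.80. These are counts of calls. By sign alone, 10 of the 12 were above 0 and 2 below, where 49.2% of all genes were above 0. Cd72, a co-receptor that damps B cell signals, rose by 2.20 ± 0.44 (log2, adjusted p = 0.00602, edgeR). Cd180, a relative of the Toll-like receptors, rose by 1.92 ± 0.37 (adjusted p = 0.00534), and Cd22, an inhibitory lectin, by 1.72 ± 0.50 (adjusted p = 0.0307). Cd40, needed for help from T cells, and Fcrl1 rose by 1.46 ± 0.44 (adjusted p = 0.0348) and 1.55 ± 0.48 (adjusted p = 0.0389). Of 12 genes for B cell signalling and transcription, 1 rose and 0 fell: Btk, a kinase downstream of the receptor, by 1.69 ± 0.33 (adjusted p = 0.00596). Pax5, the factor that sets B cell identity, was at 0.59 ± 0.79 (adjusted p = 0.635).

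Some of these calls did not hold when 1 library was left out. Cd72, Cd180 and Btk were called under all 17 alternatives tried, but of the 5 called surface genes only Cd72 and Cd180 remained called without chow replicate 1, chow replicate 2, vehicle replicate 2 or vehicle replicate 3, and only these and Cd40 without vehicle replicate 1. Fcrl1 was lost in 8 of the 17, DESeq2 among them. Cd72, Cd180, Cd40 and Btk are known in macrophages or dendritic cells too. Of 8 macrophage markers 7 rose in the same comparison (median 1.31), and their sum was 448 to 509 CPM in OA-NO2 livers, 547 to 919 in OA livers, 610 to 749 in vehicle livers and 189 to 385 in chow livers; the part of macrophages in the calls was not tested. Cd72 itself had 4.17, 3.21 and 3.26 CPM in OA-NO2 livers, 7.24, 6.15 and 2.29 CPM in OA livers, 4.57, 4.9 and 5.24 CPM in vehicle livers and 0.312, 1.1 and 1.47 CPM in chow livers. All 9 NASH diet livers lay above all chow livers for Cd72, and for others such as Cd180 (lowest 3.32 CPM, highest chow liver 3.07 CPM). This was true of none of the 6 B cell and plasma cell genes. The share of all genes that did so was not counted, so nothing is read from this contrast. Between vehicle and chow alone 39.4% of all genes did not overlap, in either direction, which is a different count.

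**Figure D5:**
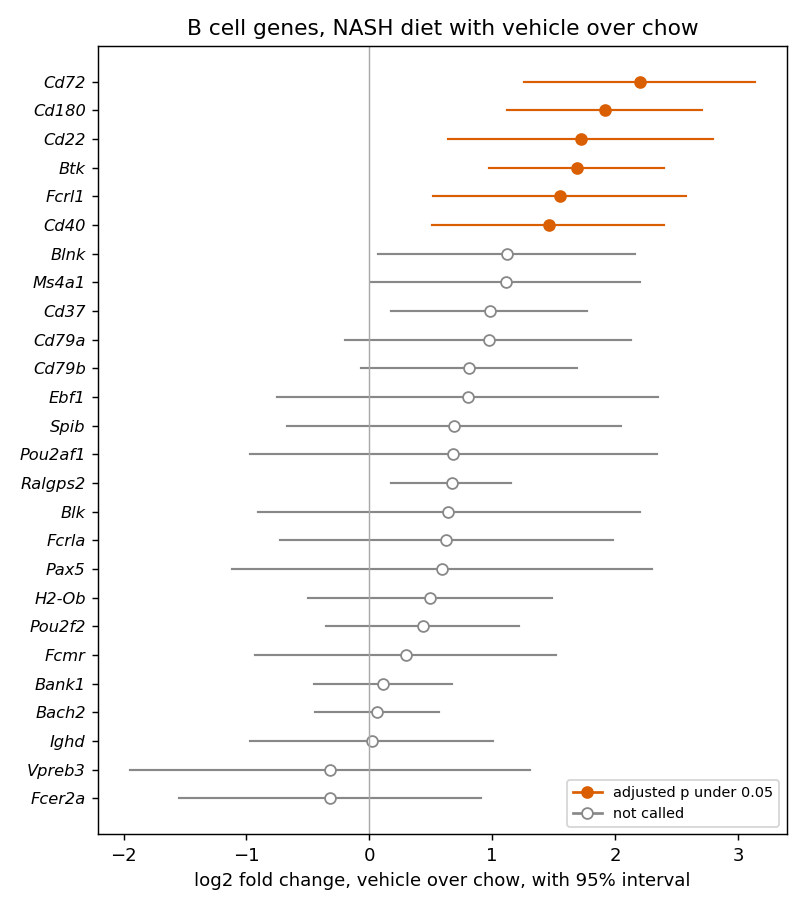
Log2 fold changes of vehicle over chow with 95% intervals for all but 1 of the tested genes of the B cell surface and signalling lists, together with Ms4a1, Cd79a and Cd79b, sorted by size. Cd72, Cd180, Cd22, Btk, Fcrl1 and Cd40 (filled) passed the test, while Ms4a1, Cd79a, Cd79b and Pax5 (open) did not.

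In OA over chow, which uses the same chow livers, 4 of 12 surface genes and 1 of 12 signalling genes rose and 0 fell (6.33% and 2.23% of all genes). By sign alone, 9 of the 12 surface genes were above 0 and 3 below. Cd72 rose by 2.30 ± 0.44 (adjusted p = 0.00858), Cd180 by 2.08 ± 0.37 (adjusted p = 0.00674), Cd22 by 1.98 ± 0.50 (adjusted p = 0.0282), Fcrl1 by 1.70 ± 0.48 (adjusted p = 0.044) and Btk by 1.64 ± 0.33 (adjusted p = 0.0109), all in edgeR. The call of Fcrl1 was lost in 14 of 17 alternatives, DESeq2 and 11 of the 12 with a library left out among them, that of Cd22 in 5 (without chow replicate 1 or 2, without OA replicate 1 or 2, and with only the groups compared) and that of Btk in 2 (without chow replicate 2 or OA replicate 2). In OA-NO2 over chow edgeR called 0 of the 12 surface genes and 0 of the 12 signalling genes (0.684% of all genes). An unadjusted p under 0.05 was seen for 4 and 3 of them (18.8% of all genes), and DESeq2 called 1 and 0 (4.51% of all genes). Cd72 was at 1.73 ± 0.44 (adjusted p = 0.0804, edgeR). In OA-NO2 over vehicle 12 of 12 surface genes had negative log2 fold changes (median -0.89, against 48.0% of all genes below 0) with 0 called, 4 at an unadjusted p under 0.05 (15.8% of all genes) and 0 called by DESeq2. Over OA, 12 of 12 surface genes were also negative (median -0.58, against 50.3% of all genes below 0), with 0 called, 3 at an unadjusted p under 0.05 (12.0% of all genes) and 0 by DESeq2. Both comparisons use the same OA-NO2 livers, and the 12 genes come from the same mice, so these counts are not separate evidence.

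Plasma cell genes outside the 6 went in both directions between chow and vehicle livers. Of 14 tested, 4 rose and 2 fell in vehicle over chow (11.1% and 8.16% of all genes), with a median of 0.33. Slamf7, a surface receptor abundant on plasma cells, rose by 3.06 ± 0.61 (adjusted p = 0.00634, edgeR), with 2.24, 3.14 and 3.34 CPM in vehicle livers against 0.0, 0.482 and 0.384 CPM in chow livers. Tnfrsf13b, a receptor for the survival factors BAFF and APRIL, rose by 2.43 ± 0.64 (adjusted p = 0.0203), Prdm1, the master factor of plasma cells, by 2.03 ± 0.66 (adjusted p = 0.0465), and Fkbp11, a folding enzyme, by 0.83 ± 0.27 (adjusted p = 0.0456). Tent5c, which in plasma cells lengthens the tails of antibody messages, fell by 1.21 on the log2 scale (adjusted p = 0.00722) and Sdc1 by 0.56 (adjusted p = 0.0424). In chow livers Tent5c had 20.4, 16.9 and 14.1 CPM and Fkbp11 4.68, 4.06 and 6.02 CPM, against 0.78, 0.206 and 0.96 CPM for Mzb1. The part of other cells in the levels of Tent5c and Fkbp11 was not tested. Sdc1, which marks plasma cells but is abundant in hepatocytes, stood at 171 ± 35.0 CPM in vehicle livers and 253 ± 41.0 CPM in chow livers (SD, n = 3 each), and hepatocyte markers had a median of -1.08 in the same comparison; their part was not tested. Mzb1, the gene nearest to Ighm, was at 0.98 ± 0.70 (adjusted p = 0.343). The calls of Slamf7 and Tent5c held under all 17 alternatives, while those of Tnfrsf13b, Fkbp11, Prdm1 and Sdc1 were lost in 3, 8, 10 and 12, Sdc1 also with library size alone. The count of 6 called was 2 without chow replicate 1 or 2, and 3 without vehicle replicate 2 or 3 or without OA-NO2 replicate 2 or 3. In OA over chow 3 of 14 rose (6.33% of all genes), Slamf7 (3.02 ± 0.61, adjusted p = 0.0107), Tnfrsf13b (2.61 ± 0.63, adjusted p = 0.0238) and Cd38 (0.60 ± 0.16, adjusted p = 0.0337), an enzyme that consumes NAD at the cell surface; these calls were lost in 1 (without OA replicate 2), 5 and 6 of 17 alternatives, Tnfrsf13b and Cd38 both without any chow liver or OA replicate 1 or 2. In the other comparisons edgeR called 0 of 14. An unadjusted p under 0.05 was seen for 3 in each of OA-NO2 over chow, vehicle and OA (18.8%, 15.8% and 12.0% of all genes). It was seen for 1 in OA over vehicle (3.9% of all genes). DESeq2 called 1 in OA-NO2 over chow (4.51% of all genes), 1 in OA-NO2 over vehicle (2.07%) and 0 in the rest. Slamf7 and Prdm1 are known from T, NK or myeloid cells too, and in vehicle over chow the T cell, NK cell and macrophage markers had medians of 1.33, 0.99 and 1.31; their part was not tested.

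Of the signals that draw B cells in or keep them alive, 4 were tested. Of these, 1 rose in vehicle over chow and 1 fell in OA over chow (11.1% and 2.23% of all genes). Ltb, which encodes lymphotoxin beta, rose in vehicle over chow by 1.49 ± 0.48 (adjusted p = 0.0461, edgeR), with 2.14, 2.03 and 1.73 CPM in vehicle livers against 0.624, 0.206 and 1.22 CPM in chow livers. This call was lost in 11 of 17 alternatives, among them leaving out any vehicle liver, and chow replicate 1 or 2. In OA-NO2 livers Ltb had 0.772, 0.777 and 0.483 CPM, below every vehicle liver, but the difference of -1.52 ± 0.46 did not pass (adjusted p = 0.174). Cxcl13, the chemokine that guides B cells into follicles, fell in OA over chow by 4.37 on the log2 scale (SE 1.19, adjusted p = 0.0376). It had 0.926, 2.85 and 1.03 CPM in OA-NO2 livers, 0.204, 0.103 and 0.0602 CPM in OA livers, 3.54, 0.32 and 0.0423 CPM in vehicle livers and 2.03, 1.72 and 4.29 CPM in chow livers. OA livers were the lowest group, yet vehicle replicate 3 was lower than all of them and vehicle replicate 1 was the second highest library. The call rests on 4, 2 and 1 reads in OA livers and was lost in 7 of 17 alternatives, among them leaving out any OA or any chow liver. Tnfsf13b, which encodes BAFF, was at -0.82 ± 0.41 in OA-NO2 over vehicle (adjusted p = 0.353). In the 4 comparisons other than vehicle or OA over chow, edgeR and DESeq2 called 0 of the 4 signals. An unadjusted p under 0.05 was seen for 0 in OA-NO2 over chow (18.8% of all genes). It was seen for 1 in each of OA-NO2 over vehicle (15.8%), OA-NO2 over OA (12.0%) and OA over vehicle (3.9%).

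The receptors that bind or carry antibody differed in both directions between chow and vehicle livers. Of 7 tested, 4 rose and 2 fell in vehicle over chow (11.1% and 8.16% of all genes). The Fc receptor genes Fcgr1, Fcgr3 and Fcgr4 and their signalling chain Fcer1g, known from macrophages and other myeloid cells, rose in vehicle over chow by 1.94 ± 0.30 (adjusted p = 0.00254), 1.38 ± 0.23 (adjusted p = 0.00308), 1.18 ± 0.28 (adjusted p = 0.0123) and 1.64 ± 0.30 (adjusted p = 0.00413), all in edgeR. They also rose in OA over chow, by 2.1, 1.67, 1.31 and 1.56 (adjusted p = 0.0028, 0.00249, 0.0125 and 0.00865). There 4 of 7 rose and 0 fell (6.33% and 2.23% of all genes). The call of Fcgr4 was lost without chow replicate 2 in vehicle over chow, and without chow replicate 1 or 2 or OA replicate 1 or 2 in OA over chow. Pigr, which in mice is made by hepatocytes and carries IgA into bile, fell by 1.06 in vehicle over chow (SE 0.25, adjusted p = 0.0124), and Fcgrt, which salvages IgG, fell by 0.64 (SE 0.20, adjusted p = 0.0398). The call of Fcgrt was lost in 7 of 17 alternatives, library size alone and leaving out any vehicle liver or chow replicate 1 or 3 among them, and that of Pigr in 2, library size alone and without vehicle replicate 3. Pigr had 1360, 1680 and 1410 CPM in OA-NO2 livers, 876, 1200 and 1750 CPM in OA livers, 1010, 1100 and 746 CPM in vehicle livers and 2190, 2020 and 1720 CPM in chow livers. OA-NO2 livers stood above every vehicle liver and below every chow liver for Pigr, without a call in either comparison (0.64 ± 0.25, adjusted p = 0.24, over vehicle and -0.41 ± 0.25, adjusted p = 0.374, over chow). In OA-NO2 over chow edgeR called 0 of the 7 tested receptors (0.684% of all genes). Of the 7, 4 had an unadjusted p under 0.05 (18.8% of all genes) and DESeq2 called 2 (4.51% of all genes). In the 3 comparisons among NASH diet groups edgeR also called 0 of 7. An unadjusted p under 0.05 was seen for 5 in OA-NO2 over vehicle (15.8% of all genes), 3 in OA-NO2 over OA (12.0%) and 0 in OA over vehicle (3.9%). In that order DESeq2 called 1, 2 and 0 of the 7 (2.07%, 0.352% and 0.0% of all genes).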

How the data were processed

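Liver RNA of 12 mice was sequenced, 1 library per mouse; ear tags in the labels show separate animals, and their replicate numbers, given in order of deposit, pair no mice. Per the labels, the KAPA mRNA HyperPrep kit was used and reads were pairs of 76 bases. The submitters' processing notes name Trimmomatic 0.35, HISAT2 2.1.0, SAMtools 1.2, HTSeq and GRCm38. The sources used here give no annotation release, strand setting or rule for reads that map to several places, so overlapping antisense genes and near copies can share reads. The authors deposited whole-number counts per gene, not normalised, for 24983 genes. Symbols and coordinates came from GENCODE M21 for 24914 of them; the 69 without one held 0.0143% of counts.

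The edgeR filter (minimum count 10, minimum total 15) left 14469 genes. A single quasi-likelihood fit in edgeR 4.0.16 (R 4.3.3), with TMM scaling, covered all 12 libraries and gave 6 comparisons. P-values were adjusted by the Benjamini-Hochberg method across these 14469 genes, and calls needed an adjusted p under 0.05. The script was tested on simulated data. Values after ± are standard errors for log2 fold changes (the fold change over the root of F) and SDs for CPM. Correlations used log2 CPM with a prior count of 2. Totals of 8462590 to 20613777 counts gave 1 to 116 reads per library for the receptor genes. The biological coefficient of variation was 0.226. Chi-square per degree of freedom between replicates of the same group was at least 26.8, so 0 pairs within a group looked like the same library deposited again. Pairs from different groups were not compared.

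The 6 genes and 14 lists (140 genes, 2 of them not analysed here) were chosen with earlier results of these data known. The text names the 6 genes in each comparison, up to the 6 lowest p among called genes of each list on B cells, plasma cells, antibodies, their signals and receptors, the 2 lowest p where a list had no call, and the 3 genes most like each of the 6. Any other gene was named after its values were seen. A gene of the B cell surface list enters the list's counts and is not reported here by itself. Alternatives were DESeq2 1.42.0 size factors, library size alone, the DESeq2 Wald test, no filter on low counts, a fit to only the groups compared, and leaving out each library.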

Additional observations from a re-analysis of the deposited data

How the results depend on the processing

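No paired analysis was possible because the replicate numbers were given in order of deposit and tie no animals together. The count of the 6 genes called was 0 in all 6 comparisons and under all alternatives, except 3 for vehicle over chow with library size alone and 1 (Ms4a1) for OA-NO2 over vehicle with DESeq2. Leaving out any library gave 0. Library size alone moved the median of all genes by 0.51 in vehicle over chow, 0.42 in OA over chow, 0.34 in OA-NO2 over chow, -0.09 in OA over vehicle, -0.18 in OA-NO2 over vehicle and -0.11 in OA-NO2 over OA, and reported changes are relative to TMM.

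Signs that turned belonged to uncalled differences that lay between -0.31 and 0.22 with all libraries, or to fits without vehicle replicate 1. The values after turning were not all near 0. In OA-NO2 over OA, Jchain and Igkc were at 0.89 and 0.9 without OA replicate 1. The cause was not tested. With 1 library left out, Ighm in vehicle over chow ranged from -0.31 to 2.14, Ms4a1 in OA over chow from -0.28 to 0.75 (-0.17 without OA replicate 3), Cd79a from -0.35 to 0.52 in OA over chow and from -1.02 to 0.32 in OA-NO2 over chow, and Cd79b in OA over vehicle from -0.77 to 0.0007. In OA-NO2 over OA the ranges were -1.01 to 0.15 for Cd79a, -0.95 to 0.89 for Jchain, -0.23 to 0.67 for Ighm and -0.78 to 0.9 for Igkc. Cd79a in OA over chow was 0.39 with library size alone, 0.01 with DESeq2 and 0.0007 without the filter, and in OA-NO2 over chow 0.09 with library size alone. Igkc in OA-NO2 over OA was 0.004 with DESeq2 size factors, 0.01 with DESeq2 and 0.01 with only the groups compared.

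The count over all genes was less stable. Vehicle over chow had 2786 calls, against 5758 with library size alone and at least 1200 with a library left out. OA over chow had 1238, against 3776 with library size alone, 1882 with DESeq2, 776 with only the groups compared and 347 to 2232 with a library left out. OA-NO2 over chow had 99, against 1127, 653, 262 without the filter, 53 with only the groups compared and 15 to 284. OA-NO2 over vehicle had 3, against 300 with DESeq2, 151 without the filter, 62 with only the groups compared and 1 to 155. OA-NO2 over OA had 1, against 51 with DESeq2, 10 without the filter and up to 130 without OA replicate 3.

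Depth limits the receptor genes, at 1 to 116 reads per library, and every comparison rests on 3 mice per group.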

Other observations

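Other cell types that a liver can hold gave the following in vehicle over chow, where 11.1% of all genes rose and 8.16% fell (edgeR, adjusted p under 0.05). Of 10 tested T cell markers 2 rose (median 1.33), of 5 NK cell markers 1 rose (median 0.99), of 7 conventional dendritic cell markers 3 rose (median 0.97), of 3 plasmacytoid dendritic cell markers 2 rose (median 1.35) and of 5 neutrophil markers 0 were called (1 at an unadjusted p under 0.05, 0 by DESeq2, median 0.56). Of 8 hepatocyte markers 4 fell (median -1.08), and of 5 red blood cell markers 1 fell (median -0.97). Summed T cell markers were 6.04 to 8.44 CPM in OA-NO2 livers, 9.45 to 13.5 CPM in OA livers, 9.59 to 12.8 CPM in vehicle livers and 3.59 to 6.72 CPM in chow livers. Vehicle replicate 1 had 12.8 CPM of them, second to the 13.5 CPM of OA replicate 2. Summed red blood cell markers, a gauge of blood left in the tissue, were 169 to 530 CPM in OA-NO2 livers, 264 to 415 CPM in OA livers, 117 to 400 CPM in vehicle livers and 308 to 591 CPM in chow livers. Vehicle replicate 1, the highest library for all 6 B cell and plasma cell genes, had 173 CPM of red blood cell markers, and the part of blood in the B cell values was not tested.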
